A study of Mus musculus with 24 samples.

Results

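The 34 genes described here are markers of homeostatic astrocytes, the glial cells that regulate ions, water and transmitters around neurons. They were chosen by symbol, as the rows of the deposited tables that carry these 34 names, and all 34 were found among the 32728 genes of the series. Expression was measured by RNA sequencing of cultured mouse neurons and astrocytes, in 24 libraries that form 8 groups of 3. Both kinds of culture came from mice whose Perk gene (Eif2ak3) carries loxP sites in both copies, so the controls carry these sites too. Perk KO cells had been transduced in the dish with a lentivirus that expresses active Cre recombinase, and WT cells with one that expresses the inactive ΔCre. The sources used here give neither the promoter that drives Cre nor the age or number of the animals behind a culture. Tunicamycin (TM) stops the attachment of N-linked sugars to proteins, so that misfolded proteins collect in the endoplasmic reticulum (ER). It was given on day in vitro 14 at 5 µg/mL for 24 hours (the description of the series gives a range that ends at 24 hours), and control cultures were given the same volume of its solvent DMSO. The groups were TM-treated and control Perk KO neuron cultures, TM-treated and control WT neuron cultures, and the same 4 groups of astrocyte cultures.

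Perk sits in the membrane of the ER and senses misfolded proteins there. Its kinase domain then acts on the initiation factor eIF2, which slows protein synthesis and turns on stress genes. Astrocytes in the healthy brain express a characteristic set of channels, gap junction proteins, metabolic enzymes, receptors and secreted proteins. Most of the 34 encoded proteins enter the ER during synthesis (25 are membrane or secreted proteins) and 9 do not. In bulk samples such as these, fewer cells of a type and less RNA per cell cannot be told apart.

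Libraries held 16.0 to 25.9 M counts. CPM stands for counts scaled to a common library size, with TMM factors computed within a culture type. Levels are given in CPM, as mean ± SD with n = 3 or as the 3 libraries of a group. A change is a log2 fold change ± standard error (SE) with 3 libraries on each side, and a gene was called where edgeR's quasi-likelihood test gave a Benjamini-Hochberg adjusted p under 0.05 over all genes tested. Eif2ak3 averaged 12.4 ± 3.23 CPM in TM-treated Perk KO neuron cultures against 140.5 ± 7.07 CPM in TM-treated WT ones, and 13.7 ± 2.17 against 88.3 ± 15.3 CPM in astrocyte cultures. Hspa5, which encodes the main ER chaperone, was at 10713 ± 568 CPM in TM-treated and 531 ± 10.8 CPM in control WT neuron cultures. The neuron cultures also held glial RNA, since the 34 genes together reached 4879.6 to 5491 CPM in control WT neuron cultures and 7279 to 10392 CPM in control WT astrocyte cultures. The 15 neuron markers summed to 6694 to 7509.9 CPM in control WT neuron cultures and to 288 to 334 CPM in control WT astrocyte cultures, where 7 of them were under 1 CPM. Control WT astrocyte cultures further contained markers of ependymal cells (6 genes, 520.2 to 738 CPM) and of fibroblasts and mural cells (11 genes, 1356 to 1529 CPM), and Gjb6, Cldn10, Slc7a10 and Slc14a1 of the 34 genes were under 1 CPM there.

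The most abundant of the 34 genes differed between the cultures. Per kb of gene length, control WT neuron cultures had most Aldoc, a glycolytic aldolase, at 201 ± 37.7 CPM per kb, followed by the secreted synapse-promoting protein Sparcl1 (170.3 ± 14.8), the end-foot membrane protein Mlc1 (159.9 ± 26.7), the secreted chaperone Clu (145 ± 12.9) and the peroxiredoxin Prdx6 (127 ± 12.7). Neighbours in this order differed by less than the sum of their SDs. In control WT astrocyte cultures the order began with Prdx6 at 503 ± 72.2 CPM per kb, Clu at 434 ± 149.5 and Mlc1 at 305 ± 96.2, and the fourth gene, the lipid phosphatase Plpp3, was at 111 ± 20.7 CPM per kb. The gap between Mlc1 and Plpp3 exceeded the sum of their SDs, and the gaps between the first 3 did not.

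Of the 30 genes with enough counts for tests within both kinds of culture, 12 were higher in control WT neuron than in control WT astrocyte cultures and 14 were lower, against backgrounds of 35.8% and 35.2% of 15817 genes tested. The claudin Cldn10 had 8.98, 7.60 and 8.06 CPM in control WT neuron cultures and 0, 0.0549 and 0.0533 CPM in control WT astrocyte cultures, which were near 0 (0, 1 and 1 counts). The amino acid exchanger Slc7a10 had 58, 33 and 29 counts in control WT neuron cultures and 2, 0 and 4 in control WT astrocyte cultures. Both passed the minimum count through the neuron libraries and are not among the 30. Among the 30, those highest in neuron over astrocyte cultures were Aldoc (log2 3.00 ± 0.19), the calcium-binding protein S100b (2.76 ± 0.29) and Sparcl1 (2.76 ± 0.24). At the other end stood the secreted BMP antagonist Chrdl1 (log2 -3.11 ± 0.22), the water channel Aqp4 (-2.45 ± 0.31), the coagulation factor receptor F3 (-2.37 ± 0.17) and Prdx6 (-1.83 ± 0.15). The bicarbonate cotransporter Slc4a4, Bmpr1b, Pla2g7 and Sfxn5 were not called, with log2 values between -0.28 and 0.47.

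With TM, nearly all of the measured genes fell in WT cultures of both kinds. In WT neuron cultures 29 of 32 genes were called lower and 0 higher, where 24.8% and 27.0% of 15546 genes tested were called, and the median of the 32 was -1.38 against 0.04 for all genes. The 0 stood also at an unadjusted p under 0.05 and in DESeq2. In WT astrocyte cultures 27 of 30 were called lower and 1 higher, where 27.7% and 25.0% of 14907 were called, and the median was -2.51 against -0.01. Of the 30 genes tested in both, 25 were called lower in both. No share of all genes was computed for this joint count or for those below. Whether such overlaps are particular to these genes was not tested. In neuron cultures Gja1, Prdx6 and Chrdl1 were not called, and in astrocyte cultures Gja1 and F3 were not. Dio2 in neuron cultures and Dio2, Ntsr2 and S100b in astrocyte cultures averaged under 10 counts with TM and passed the minimum count through their controls. Without them 28 of 31 and 24 of 27 genes were called lower. The authors' deposited tables, made with DESeq2, list the same counts for WT cultures, but 15 genes higher in control Perk KO than control WT astrocytes (8 here), 1 higher and 8 lower with TM in Perk KO astrocytes (0 and 6 here), and 29 higher and 2 lower in Perk KO than WT astrocytes under TM (28 and 1 here). For neuron cultures the authors' deposited tables list 14 higher and 3 lower with TM in Perk KO (14 and 2 here) and 14 higher and 1 lower in control Perk KO (13 and 1 here).

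**Figure D1:**
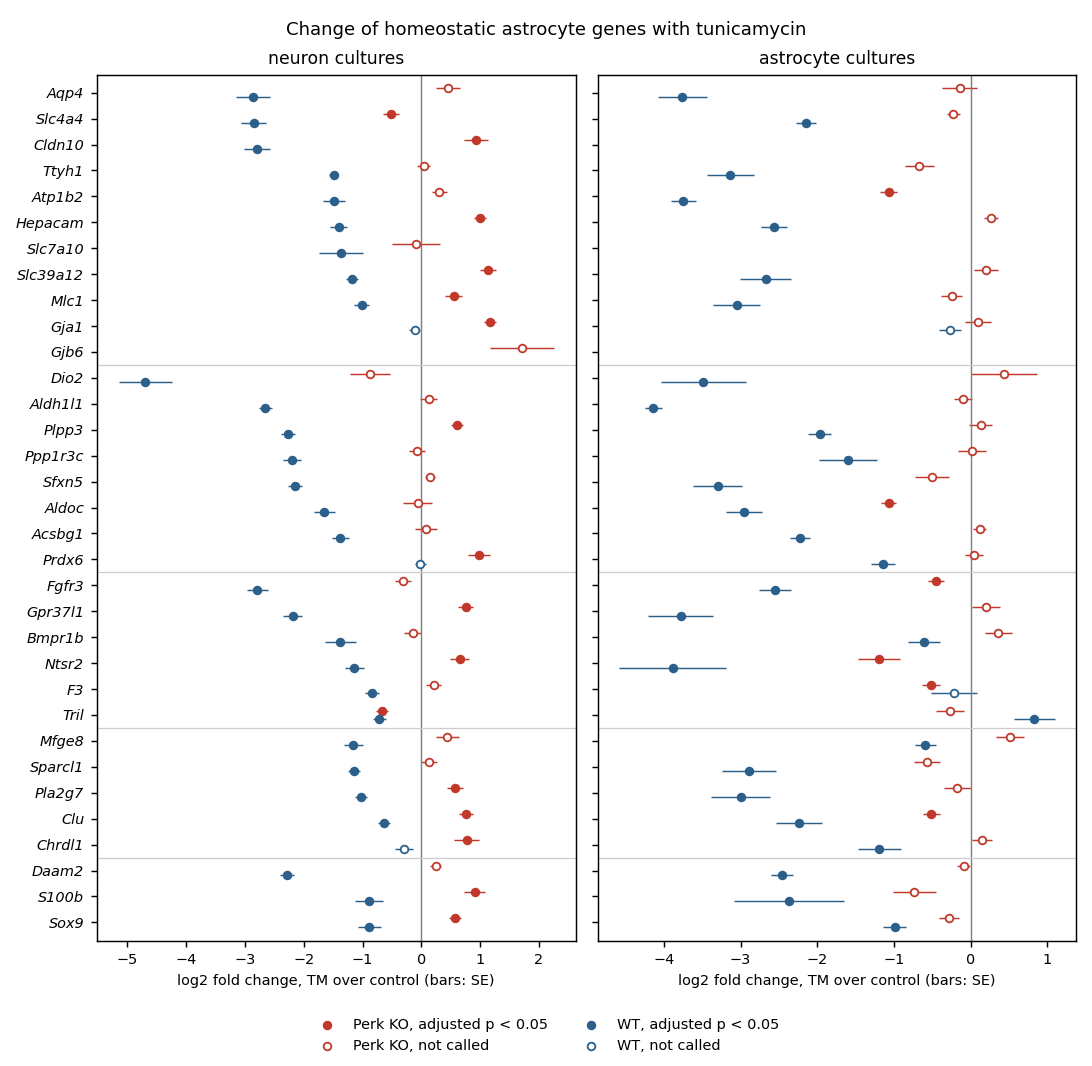
Change of each gene with TM (log2 fold change, TM over control, bars are SE, 3 libraries a side) in neuron cultures (left) and astrocyte cultures (right), in Perk KO (red, upper point) and WT (blue, lower point); filled points were called at an adjusted p under 0.05. Grey lines part transport and junction genes, genes grouped as enzymes, receptors, secreted proteins and regulators. In WT most points lie left of 0, with a median of -1.38 in neuron cultures and -2.51 in astrocyte cultures, while the Perk KO points lie around 0 with medians of 0.44 and -0.16.

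The sequences before the start sites of genes that moved together were compared. A window of 250 bases before the start in RefSeq, on GRCm38.p6, was found for 26 of the 34 genes. Shown are those of Dio2, Gpr37l1 and Plpp3, which fell with TM in WT cultures of both kinds, and of Tril, which fell in WT neuron and rose in WT astrocyte cultures. Capitals mark the letters TATAAA, found only in the first, and all are given 5′ to 3′ on the strand of the gene.
Dio2, chr12:90739039-90739288, minus strand, 600 bases outside the deposited gene: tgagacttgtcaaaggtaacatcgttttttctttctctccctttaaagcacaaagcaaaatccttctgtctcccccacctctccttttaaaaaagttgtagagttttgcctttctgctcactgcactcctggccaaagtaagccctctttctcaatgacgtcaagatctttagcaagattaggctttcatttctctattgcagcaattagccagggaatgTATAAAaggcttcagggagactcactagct
Gpr37l1, chr1:135167682-135167931, minus strand: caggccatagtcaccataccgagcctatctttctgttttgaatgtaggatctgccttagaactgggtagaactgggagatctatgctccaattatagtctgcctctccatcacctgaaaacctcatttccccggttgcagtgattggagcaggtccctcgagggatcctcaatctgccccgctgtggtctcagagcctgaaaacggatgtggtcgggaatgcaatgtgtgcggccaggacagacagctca
Plpp3, chr4:105157097-105157346, plus strand: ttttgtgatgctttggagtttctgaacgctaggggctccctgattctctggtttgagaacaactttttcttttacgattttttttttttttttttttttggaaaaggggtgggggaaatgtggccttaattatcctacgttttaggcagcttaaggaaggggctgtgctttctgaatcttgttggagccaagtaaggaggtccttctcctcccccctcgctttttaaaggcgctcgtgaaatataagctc
Tril, chr6:53820826-53821075, minus strand: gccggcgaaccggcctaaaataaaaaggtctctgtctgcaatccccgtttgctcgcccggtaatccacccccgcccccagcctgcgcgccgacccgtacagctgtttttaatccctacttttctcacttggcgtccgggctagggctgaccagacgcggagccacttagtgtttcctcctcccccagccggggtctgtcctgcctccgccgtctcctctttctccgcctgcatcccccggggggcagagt
Motifs were searched on both strands. TATAAA was found in 3 of 26 windows (Bmpr1b, Dio2 and Slc39a12), against 9.47% of 16930 windows of the same length, and CACGTG in 2 (Ntsr2 and Ppp1r3c), against 7.12%. AACAATG, a core of SOX sites, was found in 1 (Bmpr1b), against 2.31%. The Bmpr1b window lies inside the deposited gene, 187161 bases from its 5′ end, and that of Aldh1l1 64366 bases from it. No window of the 26 held the NFI palindrome (0.0413% of all), the C/EBP-ATF form TGATGNAAN (2.56%) or the ER stress response element (0.154%). A match is not a site, and the median GC content was 55.2% in the 26 windows and 56.4% in all.

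Among the channel, transporter and junction genes, Aqp4 fell in WT cultures of both kinds. It had 13.4, 14.0 and 8.05 CPM in TM-treated and 76.1, 58.1 and 118 CPM in control WT neuron cultures, a log2 change of -2.86 ± 0.29 (edgeR, adjusted p = 7.38e-05). In WT astrocyte cultures it had 48.7, 37.9 and 28.0 CPM with TM and 678, 523 and 331 CPM in controls, a change of -3.76 ± 0.32 (edgeR, adjusted p = 8.64e-05). The groups did not overlap in either culture, and 14.1% and 7.49% of the control level were left. Slc4a4 fell by 2.85 ± 0.21 in WT neuron and 2.15 ± 0.13 in WT astrocyte cultures, and Atp1b2, the beta subunit of the sodium pump in astrocytes, by 1.48 ± 0.19 and 3.74 ± 0.17 on the log2 scale. Mlc1 and Hepacam, which form a complex at astrocyte end feet, fell by 1.01 ± 0.13 and 1.41 ± 0.15 in neuron cultures and by 3.05 ± 0.31 and 2.56 ± 0.17 in astrocyte cultures. The zinc transporter Slc39a12 and the membrane protein Ttyh1 also fell in both, and Cldn10 and Slc7a10 in neuron cultures, the only ones with enough counts for a test within the culture. The Slc7a10 call was lost without WT neuron control replicate 1 and without TM replicate 1.

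Gja1, the main gap junction protein of astrocytes, stood apart from this group. It had 118, 103 and 114 CPM in TM-treated and 125, 108 and 121 CPM in control WT neuron cultures, a log2 difference of -0.11 ± 0.09 (edgeR, adjusted p = 0.332). In WT astrocyte cultures it had 226, 231 and 230.0 CPM with TM and 328, 244 and 243 CPM in controls, a difference of -0.27 ± 0.14 (adjusted p = 0.148, edgeR). The TM-treated astrocyte libraries lay just below the control ones, and the neuron libraries overlapped. With the GC correction and the replicate number as a block together, Gja1 was called lower in WT astrocyte cultures (-0.37, edgeR adjusted p = 0.0150).

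The 8 genes grouped as enzymes also include a mitochondrial carrier (Sfxn5) and a phosphatase subunit (Ppp1r3c). They were called lower in 7 cases in WT neuron cultures and in all 8 in WT astrocyte cultures, with medians of -2.17 and -2.59. Dio2, the deiodinase that makes active thyroid hormone, had 0.169, 0.549 and 0.587 CPM in TM-treated and 10.7, 6.87 and 16.3 CPM in control WT neuron cultures, a log2 change of -4.69 ± 0.45 (edgeR, adjusted p = 5.55e-05). The TM-treated libraries held only 3, 10 and 11 counts, so that the size of this fall has a wide counting error. Aldh1l1, a folate enzyme widely used to label astrocytes, had 24.1, 21.8 and 24.2 CPM with TM and 149, 153 and 129 CPM in controls in WT neuron cultures. Its astrocyte culture values were 18.7, 17.3 and 19.8 CPM with TM and 324, 312 and 334 CPM in controls, a log2 change of -4.14 ± 0.11 (edgeR, adjusted p = 4.98e-06) that left 5.76% of the control level. No TM-treated library came near a control one for this gene in either culture. Plpp3, the glycogen-targeting phosphatase subunit Ppp1r3c, the mitochondrial carrier Sfxn5, Aldoc and the acyl-CoA synthetase Acsbg1 fell in both cultures as well. Prdx6 had 628, 596 and 626 CPM with TM and 639, 650.2 and 539 CPM in controls in WT neuron cultures and was not called there (-0.02 ± 0.09). It fell in WT astrocyte cultures by 1.14 ± 0.15 (edgeR, adjusted p = 6.31e-04), to 1238, 1023 and 1070.0 CPM with TM, against 2818, 2224 and 2210.0 CPM in controls.

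All 6 receptor genes were called lower with TM in WT neuron cultures. Fgfr3 fell by 2.79 ± 0.17 and Gpr37l1, a receptor found mainly in glia, by 2.19 ± 0.16, followed by Bmpr1b, the neurotensin receptor Ntsr2, F3 and Tril. In WT astrocyte cultures 4 of the 6 were called lower, and Ntsr2 and Gpr37l1 changed most (-3.88 ± 0.70 and -3.78 ± 0.43). F3 was not called there (-0.22 ± 0.30), except with the GC correction and the block together, and Bmpr1b (-0.61 ± 0.21) was not called without WT astrocyte control replicate 2, without any one of the TM libraries, or without the filter on low counts (-0.59, edgeR adjusted p = 0.0512). Tril, which encodes an accessory protein of Toll-like receptors, was the only one of the 34 genes called higher with TM in WT cultures. It had 21.0, 15.0 and 12.2 CPM in TM-treated and 11.5, 7.47 and 7.67 CPM in control WT astrocyte cultures, a log2 change of 0.83 ± 0.26 (edgeR, adjusted p = 0.0293). In WT neuron cultures it had 24.7, 20.1 and 20.3 CPM with TM and 35.2, 34.1 and 35.0 CPM in controls, a change of -0.71 ± 0.12 (adjusted p = 9.94e-04, edgeR). The astrocyte groups did not overlap, but leaving out control replicate 2 or 3 or TM replicate 1 or 2 of the WT astrocyte cultures ended that call, with changes of 0.60 to 0.89 and edgeR adjusted p between 0.0592 and 0.102.

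The secreted proteins Sparcl1, Pla2g7, Mfge8 and Clu fell in WT neuron cultures by 1.15 ± 0.10, 1.02 ± 0.10, 1.15 ± 0.17 and 0.64 ± 0.10 on the log2 scale, and all 5 secreted proteins fell in WT astrocyte cultures, with Pla2g7 at -3.00 ± 0.38 and Sparcl1 at -2.89 ± 0.35. Chrdl1 was not called in neuron cultures (-0.29 ± 0.16) and changed by -1.19 ± 0.28 in astrocyte cultures. Of the regulators, the formin Daam2 changed most, by -2.29 ± 0.12 in neuron and -2.46 ± 0.14 in astrocyte cultures. Sox9, a transcription factor of the astrocyte lineage, had 23.9, 25.4 and 38.1 CPM with TM and 43.5, 56.4 and 58.5 CPM in controls in WT neuron cultures, a smaller change (-0.89 ± 0.20). It fell by 0.99 ± 0.16 in WT astrocyte cultures. S100b fell in both, but it was not called without WT neuron control replicate 1 or TM replicate 2 or 3, and in astrocyte cultures not without WT control replicate 1 or 2 or TM replicate 3. Its gene overlaps Dip2a on the other strand, whose mean count was 695% of that of S100b, and whether reads were counted by strand is not stated in the labels.

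Genes whose proteins enter the ER and the other genes were called lower at like shares. In WT neuron cultures 21 of the 23 tested genes for membrane or secreted proteins were called lower (median -1.37), and 8 of the 9 others (median -1.65). Among WT astrocyte cultures the counts were 18 of 21 (median -2.56) and 9 of 9 (median -2.37). This comparison is a description, and no test was made between the classes.

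In Perk KO cultures few of the genes fell in the fits without the replicate block. With the block more were called lower in astrocyte cultures, as described below. With TM in Perk KO neuron cultures 14 of 33 genes were called higher and 2 lower, where 13.1% and 10.8% of 16197 genes were called, and the median was 0.44 against 0.02 for all genes. The largest rises called were those of Gja1 (1.17 ± 0.10), Slc39a12 (1.13 ± 0.14), Hepacam (1.00 ± 0.09), Prdx6 (0.98 ± 0.19) and Cldn10 (0.93 ± 0.21). Gja1 had 379.8, 353 and 327 CPM in TM-treated and 153, 149.8 and 168 CPM in control Perk KO neuron cultures, and Prdx6 had 1898, 1139 and 1403 CPM with TM and 697, 831 and 726 CPM in controls. Neither gene's groups overlapped. The 2 genes called lower were Slc4a4 (-0.52 ± 0.14) and Tril (-0.68 ± 0.10). When control replicate 2 or control replicate 3 of the Perk KO neuron cultures was left out, 9 genes were called higher and 1 lower. Leaving out TM replicate 3 left 1 gene called lower, and leaving out TM replicate 1 gave 4. Of the 29 genes that fell in WT neuron cultures, 11 were called higher in Perk KO ones: Cldn10, Clu, Gpr37l1, Hepacam, Mlc1, Ntsr2, Pla2g7, Plpp3, S100b, Slc39a12 and Sox9. The share of all genes that did so was not computed.

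In Perk KO astrocyte cultures, 0 of 30 genes were called higher with TM by edgeR (2 at an unadjusted p under 0.05, 0 by DESeq2) and 6 were called lower, where 5.73% and 4.33% of 15164 genes were called. The median was -0.16 against 0.01. The 6 were Ntsr2 (-1.20 ± 0.28), Atp1b2 (-1.07 ± 0.12), Aldoc (-1.07 ± 0.10), F3 (-0.52 ± 0.12), Clu (-0.51 ± 0.11) and Fgfr3 (-0.45 ± 0.10). Same-numbered astrocyte libraries deviated together, and with the replicate number as a block 4 genes were called higher (Mfge8, Bmpr1b, Hepacam and Slc39a12) and 12 lower, Ttyh1, Sparcl1 and Sfxn5 among them. With the GC correction added to the block, still more genes were called lower, so the count of 6 depends on leaving the pairing out. Leaving out control replicate 1 or 2 or TM replicate 3 left 3 genes called lower, leaving out TM replicate 2 left 2, and 1 gene was called higher without control replicate 3.

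Clu and Ntsr2 moved in opposite directions with TM in the 2 kinds of Perk KO culture. Clu had 1032, 839.9 and 1013 CPM with TM and 549, 597 and 556 CPM in controls in Perk KO neuron cultures, a log2 change of 0.76 ± 0.12 (edgeR, adjusted p = 0.00335). In Perk KO astrocyte cultures it had 1977, 1601 and 1729 CPM with TM and 2809.5, 2339 and 2463 CPM in controls, a change of -0.51 ± 0.11 (adjusted p = 0.0217, edgeR). In both cultures the libraries with and without TM were apart. Ntsr2 had 32.5, 26.2 and 21.3 CPM with TM and 17.1, 18.1 and 15.8 CPM in controls in Perk KO neuron cultures, a rise of 0.65 ± 0.17 (adjusted p = 0.0264, edgeR) that was not called when any one of the 3 control libraries was left out. In Perk KO astrocyte cultures it had 2.94, 2.31 and 1.94 CPM with TM and 7.32, 4.74 and 4.56 CPM in controls, also without overlap. In Perk KO astrocyte cultures both calls were lost without control replicate 1, TM replicate 2 or TM replicate 3, and that of Ntsr2 also without control replicate 2. The difference between the cultures was called for both, at 1.29 ± 0.18 for Clu (edgeR, adjusted p = 0.00113) and 1.86 ± 0.31 for Ntsr2 (edgeR, adjusted p = 0.00371).

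**Figure D2:**
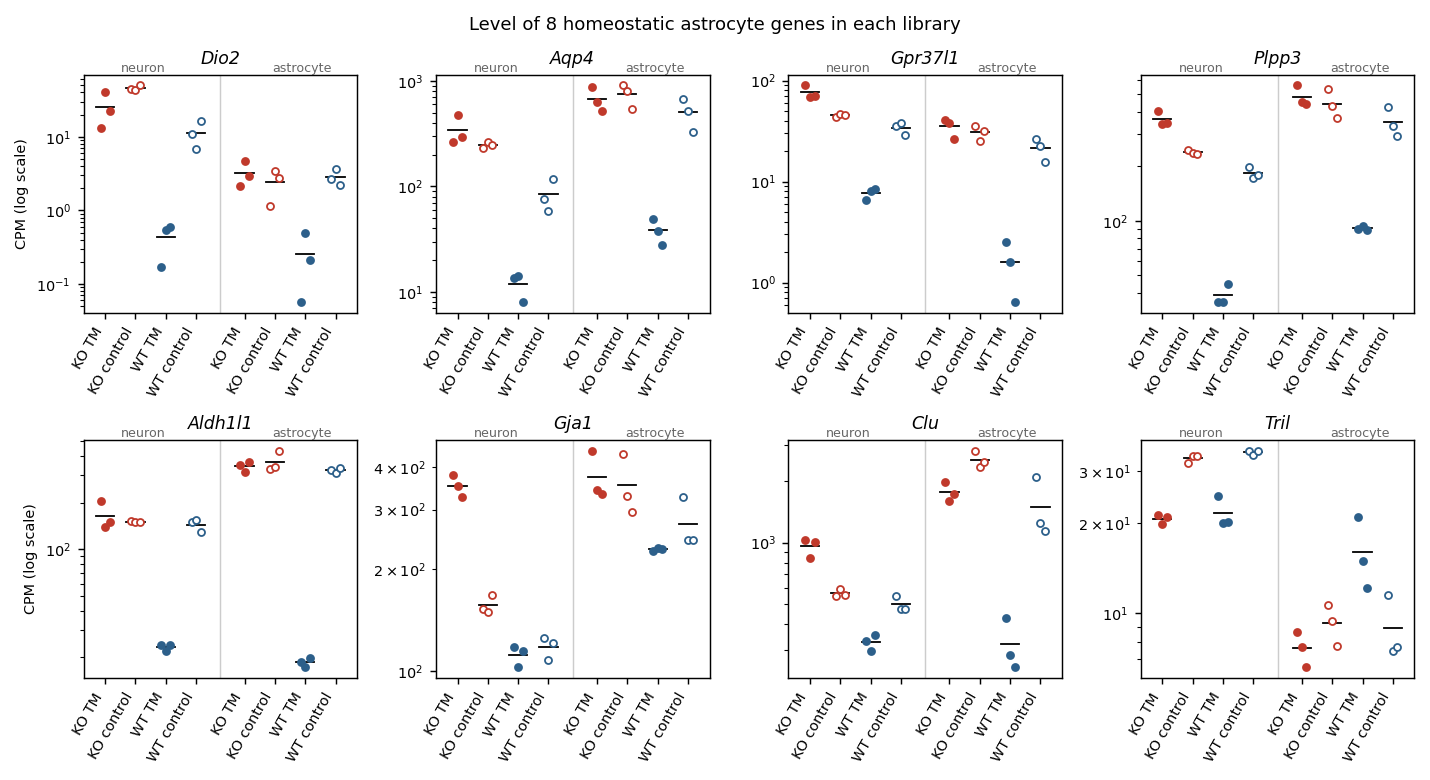
CPM (log scale) of 8 genes in each of the 24 libraries; neuron cultures are left and astrocyte cultures right of the grey line, Perk KO in red and WT in blue, filled points are TM-treated and open points control libraries, and black bars are group means. In the first 5 genes the filled blue points (WT with TM) lie lowest in both cultures, for Dio2 at means of 0.435 CPM in neuron and 0.254 CPM in astrocyte cultures, while Tril in astrocyte cultures has its highest point, 21.0 CPM, in a WT library with TM.

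Set against WT under TM, the Perk KO cultures had more RNA of nearly all of the genes. In TM-treated neuron cultures 31 of 33 genes were higher in Perk KO than in WT and 0 were lower (0 also at an unadjusted p under 0.05 and in DESeq2), where 20.7% and 19.4% of 16026 genes were called. The median was 2.26 against 0.02. The 31 include Dio2 and Gjb6, which averaged under 10 counts in TM-treated WT libraries and passed the minimum count through the Perk KO ones, and without them 29 of 31 were higher. Dio2 differed most (5.88 ± 0.54), then Aqp4 (4.91 ± 0.29) and Cldn10 (4.41 ± 0.28), and only Tril (0.00 ± 0.14) and Slc7a10 (1.22 ± 0.43) were not called. Slc7a10 lay at the threshold and was called under 5 of the other settings, and its gene overlaps Lrp3, whose mean count was 5898% of its own. In TM-treated astrocyte cultures 28 of 30 genes were higher in Perk KO and 1, Tril, was lower, where 32.1% and 31.2% of 14927 were called, and the median was 2.80 against 0.01. Without Dio2, Ntsr2 and S100b, which averaged under 10 counts in TM-treated WT astrocyte cultures, 25 of 27 were higher. F3 was not called (-0.57 ± 0.28), but was called lower with the replicate number as a block (-0.48, edgeR adjusted p = 0.0298) and without WT TM replicate 1. In both cultures 28 of the 30 genes tested were called higher.

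Without TM, Perk KO and WT cultures differed less. In control neuron cultures 13 of 32 genes were higher in Perk KO and 1 was lower, where 12.2% and 9.16% of 15757 genes were called, and the median was 0.30 against -0.01. Dio2 had 44.7, 43.6 and 49.9 CPM in control Perk KO and 10.7, 6.87 and 16.3 CPM in control WT neuron cultures (2.03 ± 0.26, edgeR adjusted p = 0.00662). Aqp4 had 233, 266 and 249 CPM in control Perk KO and 76.1, 58.1 and 118 CPM in control WT neuron cultures (1.56 ± 0.22, edgeR adjusted p = 0.00717). All Perk KO libraries were above all WT libraries for both genes. Bmpr1b (1.02 ± 0.18), Slc4a4 (0.81 ± 0.16) and Chrdl1 (0.78 ± 0.18) followed, and Ttyh1 was the gene called lower (-0.31 ± 0.09). These calls depended on single libraries and on GC content. Dio2 and Aqp4 were called in every fit without 1 library. Leaving out WT control replicate 1 or 2 gave 5 or 8 genes called higher, and leaving out replicate 2 or 3 of the Perk KO controls gave 4 or 3. Ttyh1 was not called in any of these 4 fits. With the replicate number as a block 19 were called higher, and with the block and the GC correction 22. Gja1 (0.40 ± 0.09) changed its sign with the GC correction (-0.045), and Chrdl1 was not called with it (0.13). Markers of other cells differed in the same comparison. Of the fibroblast and mural genes 7 of 11 were higher and 1 lower in control Perk KO neuron cultures (median 1.09), with sums of 495 to 642 CPM in control Perk KO and 486 to 490.2 CPM in control WT, and 4 of 10 microglia genes were higher (median 0.83), with sums of 93.3 to 140.2 CPM in control Perk KO and 62.5 to 92.9 CPM in control WT. Of the neuron markers 7 of 15 were lower and 1 higher, with sums of 5956 to 6431 CPM in control Perk KO and 6694 to 7509.9 CPM in control WT. Of the oligodendrocyte lineage genes 5 of 11 were lower and 1 higher, and 5 of 10 proliferation genes were lower. Their part in the difference was not tested.

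In control astrocyte cultures 8 of 30 genes were higher in Perk KO and 0 were lower (0 also at an unadjusted p under 0.05 and in DESeq2), where 4.71% and 10.2% of 15196 genes were called, and the median was 0.53 against 0.03. The 8 were S100b (1.16 ± 0.28), Slc39a12 (0.76 ± 0.20), Hepacam (0.74 ± 0.11), Atp1b2 (0.72 ± 0.10), Daam2 (0.59 ± 0.11), Aldoc (0.59 ± 0.14), Acsbg1 (0.47 ± 0.11) and Fgfr3 (0.46 ± 0.13). Daam2 was called higher in control Perk KO cultures of both kinds, but its neuron call was lost without the filter on low counts (edgeR, adjusted p = 0.163) and in 5 of the 6 fits without 1 library. With the replicate number as a block 23 genes were called higher in control Perk KO astrocytes and 1, F3, lower, and 14 were called higher in control Perk KO cultures of both kinds (Acsbg1, Aqp4, Atp1b2, Chrdl1, Daam2, Gja1, Gpr37l1, Ntsr2, Pla2g7, Plpp3, Prdx6, S100b, Sox9 and Sparcl1). With DESeq2 the count called in both was 6. Of the other cells' markers, 2 of 9 neuron genes were lower and 1 of 5 ependymal genes higher in control Perk KO astrocytes. Of the fibroblast and mural genes 1 of 9 was higher, and of the oligodendrocyte lineage genes 1 of 7. One endothelial gene of 3, Flt1, was lower, 1 of 10 proliferation genes was higher, and 0 of 12 microglia genes were called. Leaving out WT control replicate 1 gave 21 genes called higher, with F3 lower, while leaving out WT control replicate 2 gave 0 and WT control replicate 3 gave 2. Leaving out replicate 1 or 2 of the Perk KO controls gave 2, and leaving out their replicate 3 gave 4.

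**Figure D3:**
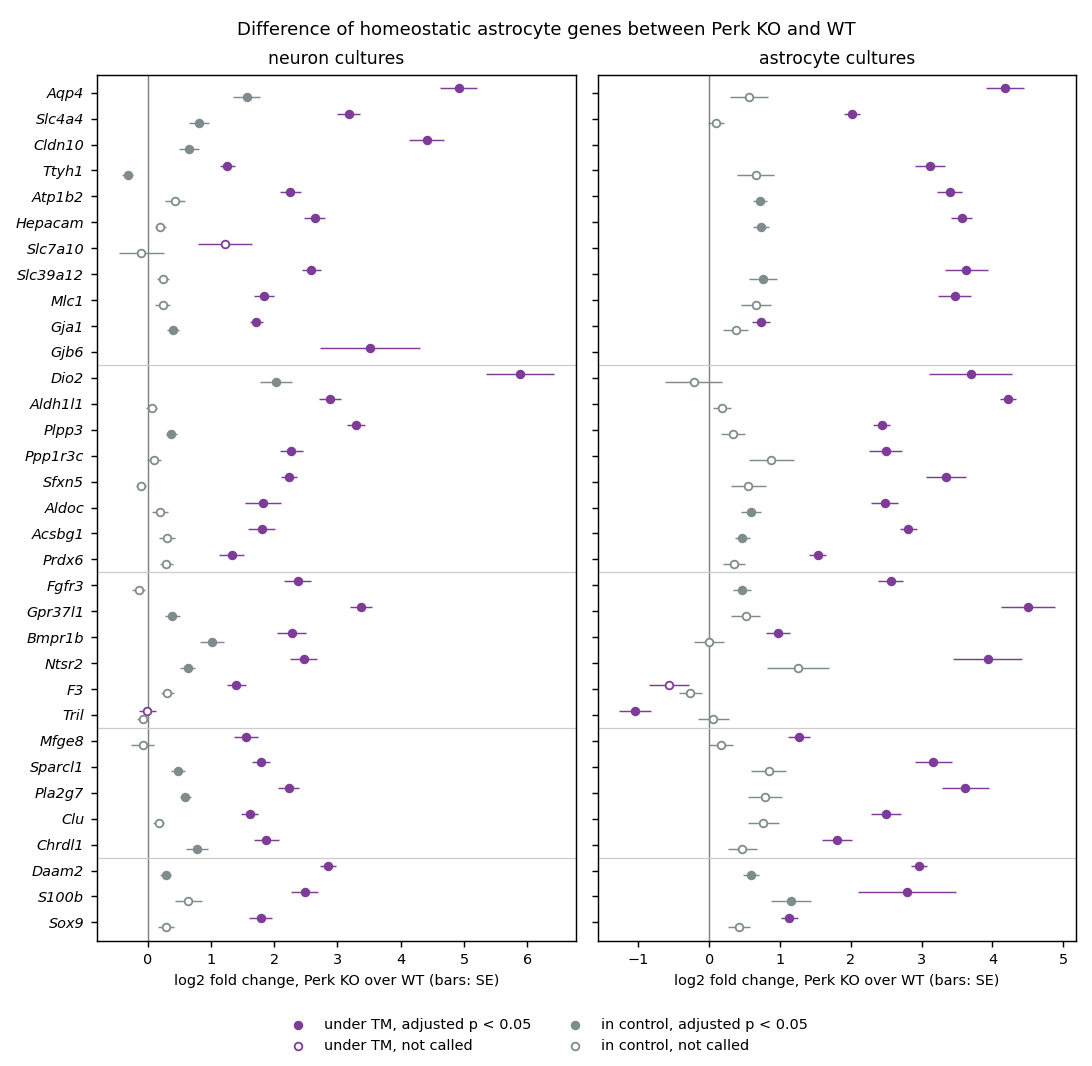
Difference of each gene between Perk KO and WT (log2 fold change, Perk KO over WT, bars are SE, 3 libraries a side) in neuron cultures (left) and astrocyte cultures (right), under TM (purple, upper point) and in controls (grey, lower point); filled points were called at an adjusted p under 0.05. The purple points lie right of the grey ones for nearly every gene, with medians of 2.26 against 0.30 in neuron cultures and 2.80 against 0.53 in astrocyte cultures, and Tril lies at 0.00 in neuron and -1.05 in astrocyte cultures under TM, where F3 in astrocyte cultures is also left of its control point (-0.57 against -0.27).

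Whether the TM change itself differed by genotype was tested as an interaction (Perk KO change minus WT change). In neuron cultures 30 of 32 genes had an interaction above 0 and 0 below (0 also at an unadjusted p under 0.05 and in DESeq2), where 14.5% and 15.4% of 15939 genes were called, with a median of 1.66 against -0.08. In astrocyte cultures 26 of 30 were above 0 and 1 below, where 19.8% and 14.6% of 15114 were called, with a median of 2.19 against 0.01. The 26 genes above 0 in astrocyte cultures were all above 0 in neuron cultures too. Without the genes that averaged under 10 counts in a group, 29 of 31 were above 0 in neuron cultures, and 24 of 27 above and 1 below 0 in astrocyte cultures. Slc7a10 and Tril were not called in neuron cultures, and Gja1, S100b and F3 in astrocyte cultures.

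The 6 largest interactions in neuron cultures belonged to Dio2, Cldn10, Aqp4, Gpr37l1, Plpp3 and Aldh1l1. Dio2 had 13.2, 40.8 and 22.3 CPM in TM-treated and 44.7, 43.6 and 49.9 CPM in control Perk KO neuron cultures, and 0.169, 0.549 and 0.587 CPM in TM-treated and 10.7, 6.87 and 16.3 CPM in control WT ones. The Perk KO libraries with TM were lower than their controls but well above all WT libraries with TM, and the interaction was 3.80 ± 0.68 (edgeR, adjusted p = 0.00145). For Cldn10 the values were 32.0, 21.8 and 20.0 CPM with TM and 15.0, 12.7 and 11.1 CPM in controls in Perk KO, and 1.36, 0.878 and 1.39 CPM with TM and 8.98, 7.60 and 8.06 CPM in controls in WT (3.69 ± 0.31, edgeR adjusted p = 1.17e-05). All Perk KO libraries with TM were above, and all WT libraries with TM below, their own controls. Aqp4 had 263, 472 and 294 CPM with TM and 233, 266 and 249 CPM in controls in Perk KO neuron cultures, and an interaction of 3.29 ± 0.40 (edgeR, adjusted p = 1.23e-04). The Perk KO libraries with TM overlapped with their controls, and replicate 2 was the highest of them.

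Gpr37l1 had 89.7, 68.8 and 70.3 CPM with TM and 43.2, 47.0 and 45.4 CPM in controls in Perk KO neuron cultures, and 6.55, 8.01 and 8.48 CPM with TM and 35.6, 38.2 and 28.9 CPM in controls in WT ones (2.91 ± 0.20, edgeR adjusted p = 2.38e-06). Plpp3 had 405, 344 and 344 CPM with TM and 247, 237 and 235 CPM in controls in Perk KO, and 35.8, 35.8 and 45.0 CPM with TM and 197, 173 and 180.0 CPM in controls in WT neuron cultures (2.85 ± 0.15, edgeR adjusted p = 4.59e-07). For both genes, whose upstream windows are printed above, TM libraries were above controls in Perk KO and below them in WT, without overlap. Aldh1l1 had 205, 140.0 and 149.7 CPM with TM and 151, 151 and 151 CPM in controls in Perk KO neuron cultures, which overlapped, and an interaction of 2.75 ± 0.18 (edgeR, adjusted p = 1.95e-06). In astrocyte cultures the interaction was largest for Aldh1l1 (4.01 ± 0.17), Gpr37l1 (3.96 ± 0.46), Dio2 (3.89 ± 0.76) and Aqp4 (3.59 ± 0.42), and each of these Perk KO groups overlapped between TM and control. Dio2 averaged under 10 counts in TM-treated WT astrocyte cultures, so the size of its value has a wide counting error. Aldh1l1 there had 348, 315 and 364 CPM with TM and 330.1, 339.5 and 433 CPM in controls in Perk KO.

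Tril went against the other genes. In TM-treated Perk KO neuron cultures it had 21.4, 19.8 and 21.0 CPM and in control ones 32.1, 33.6 and 33.7 CPM, without overlap, and its interaction was 0.00 ± 0.14 (edgeR, adjusted p = 0.984), with an approximate 95% interval of -0.27 to 0.28. In astrocyte cultures it had 8.62, 7.67 and 6.58 CPM with TM and 10.6, 9.38 and 7.75 CPM in controls in Perk KO, where the groups overlapped, and the interaction was -1.13 ± 0.33 (edgeR, adjusted p = 0.0187), the only one below 0 that was called. Clu, Ntsr2 and Prdx6 followed the other genes, with interactions of 1.37 ± 0.15, 1.76 ± 0.23 and 0.96 ± 0.22 in neuron cultures and 1.70 ± 0.33, 2.66 ± 0.75 and 1.16 ± 0.19 in astrocyte cultures. The Ntsr2 call in astrocyte cultures rests on low levels in WT with TM (4, 3 and 1 counts), and it was at an edgeR adjusted p of 0.0504 without WT TM replicate 3.

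**Figure D4:**
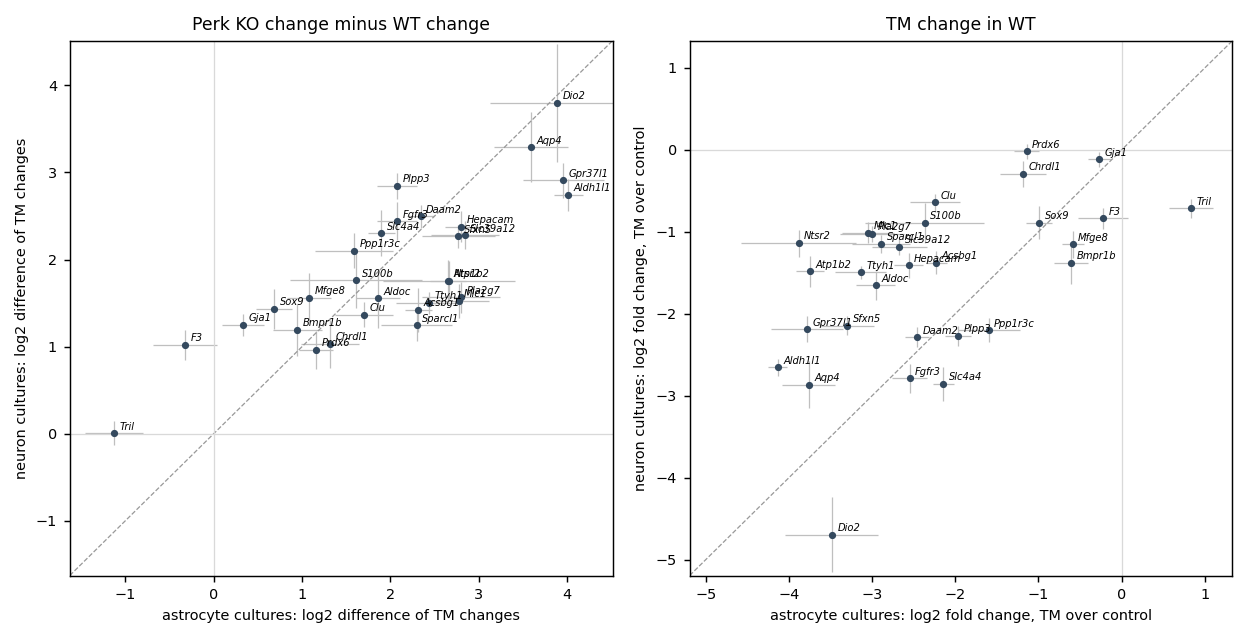
Each point is 1 of the 30 genes tested in both kinds of culture, with its value in neuron cultures (vertical) against that in astrocyte cultures (horizontal), and bars are SE; left, the interaction of genotype and TM (log2, Perk KO change minus WT change), right, the TM change in WT (log2, TM over control), and the dashed line marks equal values. On the left the points rise together from Tril to Dio2 (Pearson's r 0.79, Spearman's rho 0.73 across genes), and on the right 21 of 30 lie above the line, with a larger fall in astrocyte cultures (r 0.52, rho 0.52).

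Across the 30 genes tested in both kinds of culture, which share no libraries, the interactions correlated at Pearson's r 0.79 and Spearman's rho 0.73, and the WT TM changes at 0.52 and 0.52. Genes are not independent replicates, and levels and gene length are common to both sides, so these values are descriptions. The TM changes in Perk KO cultures correlated at 0.0651 and 0.135.

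How far the TM change differed between the cultures was tested for each genotype (neuron change minus astrocyte change). In WT, 14 of 32 genes were above 0 and 4 below, where 12.4% and 12.5% of 15712 genes were called. Ntsr2 (2.58 ± 0.70), Atp1b2 (2.09 ± 0.27), Mlc1 (1.86 ± 0.35) and Pla2g7 (1.80 ± 0.41) fell less in neuron cultures. Ntsr2 averaged under 10 counts in TM-treated WT astrocyte cultures, so the size of its value has a wide counting error. Tril (-1.72 ± 0.30), Slc4a4 (-0.88 ± 0.25) and Mfge8 (-0.74 ± 0.23) were below 0, and the count of 4 also includes Cldn10. Its WT astrocyte libraries held 0, 1 and 3 counts with TM and 0, 1 and 1 in controls, which give no usable TM change, and it passed the minimum count through the neuron libraries. Among the 30 genes tested within both kinds of culture, 14 were above 0 and 3 below. Without Cldn10, Dio2, Ntsr2, S100b and Slc7a10, which averaged under 10 counts in a group, 13 of 27 were above 0 and 3 below. The 4 became 2 without WT astrocyte control replicate 1 and 2 without WT astrocyte TM replicate 3, and with library totals alone Mfge8 and Slc4a4 were not called. Scaling by totals shifted the median of all genes by 0.32 here, and the 18 genes called kept their signs. Ntsr2 was not called without WT astrocyte TM replicate 3, and Slc4a4 not without WT neuron TM replicate 1 or 2. In Perk KO, 12 of 32 were above 0 and 0 below by edgeR (3 at an unadjusted p under 0.05, 0 by DESeq2), where 6.90% and 4.78% of 16059 were called, led by Ntsr2, S100b (1.65 ± 0.31), Atp1b2 (1.39 ± 0.18) and Clu. Without Cldn10 and Slc7a10, which averaged under 10 counts in a group, 12 of 30 were above 0 and 0 below. The 12 became 7 without Perk KO neuron control replicate 1. The 0 became 1 without Perk KO neuron TM replicate 1 or 2 or Perk KO astrocyte control replicate 1.

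The difference between the cultures in the interaction was called for few genes, 3 of 32 above 0 and 1 below, where 2.08% and 3.43% of 15924 were called. Without Cldn10, Dio2, Ntsr2, S100b and Slc7a10, which averaged under 10 counts in a group, 3 of 27 were above 0 and 1 below. F3 (1.47 ± 0.43), Tril (1.27 ± 0.36) and Gja1 (1.05 ± 0.28) were above 0, and Aldh1l1 (-1.14 ± 0.25) was below. The interaction of Gja1 was 1.25 ± 0.13 in neuron and 0.33 ± 0.23 in astrocyte cultures, where it had 448, 344 and 334 CPM with TM and 437, 328 and 295 CPM in control Perk KO cultures, which overlapped. That of F3 was 1.02 ± 0.17 in neuron and -0.33 ± 0.36 in astrocyte cultures. F3 had 114, 230.2 and 276 CPM in TM-treated and 184, 245 and 284 CPM in control WT astrocyte cultures, a wide spread. The call of F3 was lost in most fits without 1 library, and those of Tril and Gja1 in many. All 3 were lost together without WT neuron control replicate 1 or 2, WT neuron TM replicate 2, Perk KO neuron control replicate 2 or TM replicate 1, WT astrocyte control replicate 2 or TM replicate 2, or Perk KO astrocyte control or TM replicate 2, and 1 was left without Perk KO neuron control replicate 1 or 3 or TM replicate 3. With library totals alone none of the 3 was called. Aldh1l1 was called in each of these fits, joined below 0 by Acsbg1 without Perk KO neuron TM replicate 1 and by Mlc1 without WT astrocyte TM replicate 1.

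Gjb6, another gap junction protein, passed the minimum count only in the 2 comparisons of TM-treated Perk KO neuron cultures with their controls and with TM-treated WT. It had 1.34, 0.611 and 0.589 CPM there, 0.180, 0.390 and 0.218 CPM in control Perk KO, 0.0565, 0 and 0.160 CPM in TM-treated WT and 0.201, 0.294 and 0.126 CPM in control WT neuron cultures. The Perk KO libraries with TM were the highest of all, at 34, 11 and 12 counts, and none of the 6 WT astrocyte libraries held a count. The urea transporter Slc14a1 passed in no comparison and is the only one of the 34 genes without a test. Its highest library had 0.759 CPM, a control one of the Perk KO astrocyte cultures. WT neuron libraries held 1, 2 and 0 counts with TM and 7, 5 and 4 in controls, too few for a test. Within a kind of culture, Cldn10 and Slc7a10 were tested in neuron cultures alone, and Cldn10 reached 0.642, 0.620 and 0.686 CPM in TM-treated against 0.163, 0.0558 and 0.0550 CPM in control Perk KO astrocyte cultures, with 12, 11 and 12 counts in TM-treated and 3, 1 and 1 in control libraries.

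Most of the other astrocyte genes fell as well. Of 36 further genes of the cell type, 28 were lower and 1 higher with TM in WT neuron cultures (median -0.92). Of all genes tested, 24.8% were called lower there and 27.0% higher. In WT astrocyte cultures 28 of 32 were lower (median -2.05), where 27.7% of all genes were called lower. The smallest p belonged to Slc25a18 (-3.60 ± 0.12), Slc1a3 (-2.54 ± 0.11), Glul (-2.76 ± 0.12) and Slc6a11 (-1.57 ± 0.08) in neuron cultures, a mitochondrial carrier, a glutamate transporter, glutamine synthetase and a GABA transporter. Under TM 33 of 36 were higher in Perk KO than in WT neuron cultures and 30 of 33 in astrocyte cultures. Of all genes, 20.7% and 32.1% were called higher in these 2 comparisons.

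Markers of other cells moved with TM too. In WT neuron cultures, where 24.8% of all genes tested were called lower, 12 of 15 neuron markers fell. Their sum was 3625 to 3902 CPM with TM and 6694 to 7509.9 CPM in controls. In Perk KO neuron cultures, where 10.8% of all genes were called lower, 12 of 15 fell as well. Their sums were 3623 to 4326 CPM with TM, against 5956 to 6431 CPM in controls. Oligodendrocyte lineage genes summed to 124 to 170.2 CPM with TM and 475 to 537 CPM in controls in WT neuron cultures, with Opalin and Gpr17 at 0 with TM, and 9 of 10 tested fell while Mog rose. In the same WT cultures microglia genes summed to 57.1 to 66.5 CPM with TM and 62.5 to 92.9 CPM in controls (5 of 9 fell), and fibroblast and mural genes to 161 to 189.8 CPM with TM and 486 to 490.2 CPM in controls (6 of 11 fell). Ependymal genes summed to 72.5 to 75.7 CPM with TM and 80.0 to 116 CPM in controls (4 of 6 fell), and 1 of 4 endothelial genes fell. Under TM 6 of 6 ependymal, 7 of 11 fibroblast and mural, 6 of 8 microglia and 5 of 8 oligodendrocyte lineage genes were higher in Perk KO than in WT neuron cultures. Of all genes 20.7% were called higher there, and Mog was lower. In WT astrocyte cultures 27.7% of all genes tested were called lower. There 5 of 5 ependymal, 7 of 11 microglia and 4 of 6 oligodendrocyte lineage genes fell. So did 4 of 9 fibroblast and mural, 5 of 10 neuron and 1 of 3 endothelial genes, while the neuron genes Nefm and Tubb3 rose. The ependymal sum was 137 to 191 CPM with TM against 520.2 to 738 CPM in controls. Proliferation genes fell in 8 of 10 cases in both WT cultures, while Hmgb2 rose in neuron and Pcna in astrocyte cultures. The part of a changed mix of cells in the fall of the 34 genes was not tested.

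**Figure D5:**
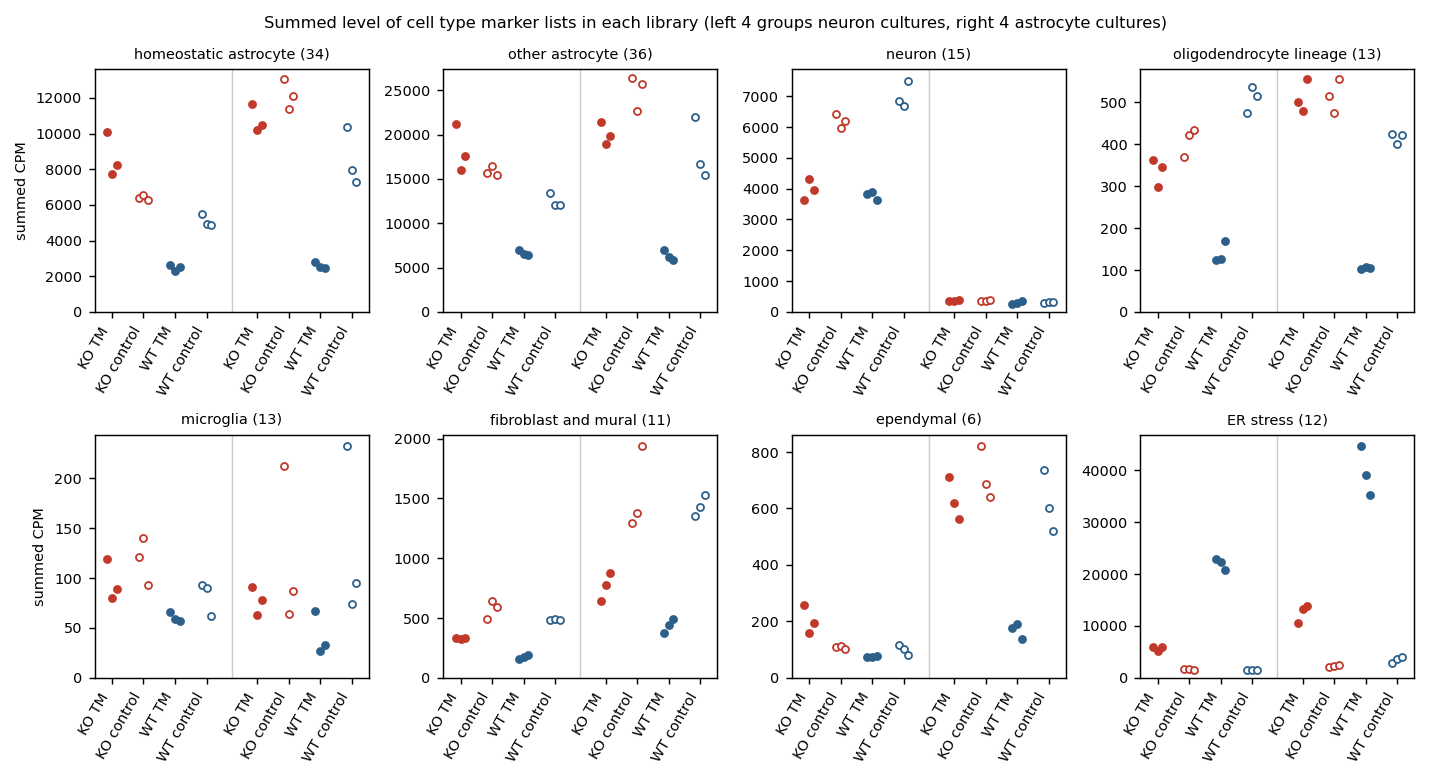
Summed CPM of 8 gene lists in each library (neuron cultures left of the grey line, astrocyte cultures right; Perk KO red, WT blue, filled TM, open control; number of genes in brackets). The astrocyte lists are lowest in the WT libraries with TM in both cultures, the neuron list is lower with TM in both genotypes of the neuron cultures, and the ER stress list is highest in WT libraries with TM (20727 to 22904 CPM in neuron and 35323 to 44586 CPM in astrocyte cultures).

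Genes of the ER stress response rose in both genotypes. All 12 rose with TM in neuron cultures of both genotypes, with sums of 5127 to 5962 CPM in TM-treated and 1514 to 1613 CPM in control Perk KO, and 20727 to 22904 CPM in TM-treated and 1479 to 1595 CPM in control WT cultures. Of all genes tested in neuron cultures, 13.1% rose in Perk KO and 27.0% in WT. In astrocyte cultures 10 of 12 rose in Perk KO and 12 of 12 in WT, against 5.73% and 25.0% of all genes. Ddit3, a transcription factor downstream of Perk, had 334, 257 and 277 CPM in TM-treated Perk KO and 1129, 1031 and 934 CPM in TM-treated WT neuron cultures. All 12 were lower in Perk KO than in WT under TM in both kinds of culture. Of all genes, 19.4% in neuron and 31.2% in astrocyte cultures were called lower there. In control astrocyte cultures 9 of 12 were already lower in Perk KO than in WT and 1 was higher (median -0.90). Of all genes 10.2% and 4.71% were called. In control neuron cultures 2 of 12 were lower and 2 higher, against 9.16% and 12.2% of all genes. The interaction of genotype and TM was called below 0 for all 12 in neuron cultures and for 7 of 12 in astrocyte cultures. Of all genes, 15.4% and 14.6% were called below 0. The part of the ER stress response in the levels of the 34 genes was not tested.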

How the data were processed

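RNA was measured by paired-end sequencing of total RNA, as the labels call it, in 24 libraries. Per the submitters' processing notes, reads were handled with fastp, HISAT2, featureCounts and DESeq2 on GRCm38.p6. Versions and settings are not stated in the labels. Each of the 8 tables that the authors deposited holds raw counts per gene, their log2 fold change, and the raw and adjusted p-value of their test. All 24 count columns were joined by gene identifier, and 0 of 595092 counts that stand in more than one table differed between tables. Libraries held 16.0 to 25.9 M counts. No pair of replicates agreed within sampling noise, since the chi-square per gene was 7.06 or more.

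Tests used edgeR 4.0.16 (quasi-likelihood F-test, TMM) in R 4.3.3 with limma 3.58.1, on genes whose counts averaged 10 or more over the libraries fitted, with Benjamini-Hochberg adjustment over all of these and a threshold of 0.05. An SE is the log2 change divided by the square root of F, and intervals are approximate. Each of the 8 comparisons of 2 groups used its 6 libraries, and interactions used 12 or 24. Alternatives were DESeq2 1.42.0, its size factors, library totals, no filter, a correction in 20 bins of GC content (transcripts of GENCODE vM21), the replicate number as a block, and leaving out each library. The computation was tested on simulated data.

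Replicates are called biological in the labels, with no word on separate cultures or animals. The p-values therefore reflect no more than how far the libraries of a group differ, and that may be technical. Same-numbered libraries of different astrocyte groups deviated together, with correlations of 0.33 to 0.68, so the numbers pair them. In neuron cultures this held between Perk KO and WT of 1 treatment (0.22 to 0.43 in controls, 0.23 to 0.60 with TM). It did not hold for all same-numbered TM and control libraries (-0.50 to 0.37 in WT, -0.18 to 0.30 in Perk KO). In WT neuron cultures, control replicates 1, 2 and 3 deviated with TM replicates 1, 3 and 2 (0.37, 0.52 and 0.57). In Perk KO the same pairs gave 0.30, 0.07 and 0.39. The replicate block followed the numbers, and a block on these pairs was not fitted. In fits over both kinds of culture the block also joined same-numbered neuron and astrocyte libraries. Whether those deviate together was not examined, and the labels do not pair them.

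All 34 genes are accounted for. Values per library are given for the genes with the largest interactions in neuron cultures, the highest levels per kb, opposite directions in the 2 cultures or no call, and for Prdx6, Gja1, Sox9, F3 and Gjb6, which were added after their values were seen. The 34 genes and the marker lists were chosen with earlier results of these data known.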

Additional observations from a re-analysis of the deposited data

Results flagged for a closer look

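Results are listed here where the TM change differed between genotypes or cultures in a test of that difference (edgeR's quasi-likelihood test of the interaction term). Between Perk KO and WT, 30 of 32 genes tested were above 0 in neuron cultures, where 14.5% of all genes were called above and 15.4% below 0. In astrocyte cultures 26 of 30 were above and 1 below 0, where 19.8% and 14.6% of all genes were called. In neuron cultures the log2 interaction was 3.80 for Dio2, 3.69 for Cldn10, 3.29 for Aqp4, 2.91 for Gpr37l1, 2.85 for Plpp3, 2.75 for Aldh1l1, 1.76 for Ntsr2 and 1.37 for Clu. In astrocyte cultures it was 3.89 for Dio2, 3.59 for Aqp4, 3.96 for Gpr37l1, 2.07 for Plpp3, 4.01 for Aldh1l1, 2.66 for Ntsr2, 1.70 for Clu and -1.13 for Tril. Dio2 and Ntsr2 averaged under 10 counts in TM-treated WT astrocyte cultures, and Dio2 also in TM-treated WT neuron cultures. They passed the minimum count through other groups, so the size of these values has a wide counting error.

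Between neuron and astrocyte cultures, the difference in TM change was above 0 for 14 of 32 genes and below 0 for 4 in WT. Of all genes 12.4% and 12.5% were called there. In Perk KO it was above 0 for 12 of 32, where 6.90% of all genes were called, and for 12 of 30 without Cldn10 and Slc7a10. The 4 below 0 in WT were 12.5% of the genes tested, the same share as over all genes. The 4 include Cldn10, which passed the minimum count through the neuron libraries and held 0, 1 and 3 counts with TM and 0, 1 and 1 in controls in WT astrocyte cultures. Without it 3 genes were below 0. Without all 5 genes that averaged under 10 counts in a group, 13 of 27 were above 0 and 3 below. The interaction itself differed between the cultures for 4 of 32 genes, 3 above 0 (F3 at 1.47, Tril at 1.27 and Gja1 at 1.05) and 1 below (Aldh1l1 at -1.14). Of all genes 2.08% were called above and 3.43% below 0. The 1 below was 3.125% of the genes tested, near that background. Without the 5 genes that averaged under 10 counts in a group, 3 of 27 were above 0 and 1 below. With 3 libraries in a group, single libraries that stand far from their group were not looked for.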

How the results depend on the processing

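The fall in WT neuron cultures (29 lower), the difference between Perk KO and WT under TM (31 and 28 higher) and the interactions (30 and 26 above 0) stayed within 1.5 times their counts under every alternative run. Counts of the 34 genes that moved further are given by setting. With library totals alone, 1 gene was lower with TM in Perk KO neurons, 2 were below 0 in the culture difference in WT and 1 in that in Perk KO, and 0 were above and 2 below 0 in the difference of the interactions. Without a filter on low counts, 2 were higher with TM in Perk KO astrocytes, 14 were higher in control Perk KO astrocytes, 2 were lower in Perk KO than WT astrocytes under TM, and 2 were below 0 in the culture difference in Perk KO. With DESeq2, 15 were higher in control Perk KO astrocytes, and with its size factors in edgeR 1 was below 0 in the culture difference in Perk KO.

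With the replicate block, 4 were higher and 12 lower with TM in Perk KO astrocytes, 23 were higher and 1 lower in control Perk KO astrocytes, 2 were lower in Perk KO astrocytes under TM, 2 were below 0 in the culture difference in Perk KO and 2 in the difference of the interactions. With the GC correction, 0 were lower in control Perk KO neurons and 1 was below 0 in the culture difference in Perk KO. With the GC correction and the replicate block together, 4 were lower with TM in Perk KO neurons, 22 higher in control Perk KO neurons, 2 higher and 15 lower with TM in Perk KO astrocytes, 23 higher in control Perk KO astrocytes, 2 below 0 in the culture difference in Perk KO and 2 in the difference of the interactions. Gja1 in control Perk KO neurons was at -0.045 with the GC correction and -0.040 with the block added, against 0.40. In neuron cultures, where same-numbered TM and control libraries did not all deviate together, the block ended the rise of Mlc1 in Perk KO (edgeR, adjusted p = 0.0534).

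Without 1 library, the counts ranged from 9 to 17 higher and 1 to 4 lower with TM in Perk KO neurons, 0 to 1 higher and 2 to 6 lower in Perk KO astrocytes, and 0 to 1 higher in WT astrocytes. They were 3 to 18 higher and 0 to 1 lower in control Perk KO neurons, 0 to 21 higher and 0 to 1 lower in control Perk KO astrocytes, and 1 to 2 lower in Perk KO astrocytes under TM. Culture differences had 2 to 5 below 0 in WT, and 7 to 15 above and 0 to 1 below 0 in Perk KO, and the difference of the interactions 0 to 3 above and 1 to 2 below 0. Over all genes, 1526 were called with TM in Perk KO astrocytes, against 4299 with the block and 4372 with the GC correction added. In control Perk KO astrocytes 2260 were called, against 5731 and 5722. The difference of the interactions had 878 calls, against 1494 with DESeq2 and 1662 with the GC correction and block. The causes were not tested. Of 272 group levels, 253 moved by less than 1 SD with TMM over all 24 libraries. Levels under 1 CPM (Gjb6, Slc14a1, and in astrocyte cultures Cldn10 and Slc7a10) were limited by depth.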

Other observations

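Genes linked to reactive astrocytes, a list of 35, had members called in both directions. With TM in WT neuron cultures 9 of 32 tested rose (28.1%) and 14 fell (43.8%), where 27.0% and 24.8% of all genes tested were called, so that the share that rose was near the background (median -0.50), and in WT astrocyte cultures 5 of 33 rose (Cd44, Fkbp5, Ptgs2, Ptx3 and Timp1) and 17 fell (15.2% and 51.5%, against 25.0% and 27.7% of all genes; median -0.77). In Perk KO cultures 14 of 34 rose with TM in neuron cultures (41.2%, against 13.1%), and 4 of 33 rose and 8 fell in astrocyte cultures (12.1% and 24.2%, against 5.73% and 4.33%). Their summed level was 4342 to 6438 CPM in TM-treated and 2993 to 4508 CPM in control Perk KO neuron cultures, and 2332 to 2511 CPM in TM-treated and 2655 to 3359 CPM in control WT neuron cultures.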
